A study of Arabidopsis thaliana with 8 samples.

Results

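Protoplasts are plant cells freed of their walls, and transfection lets them express a chosen gene within hours. Mesophyll cell protoplasts of Arabidopsis thaliana with the construct 35S:ORE1, 6 h into transient expression, were compared here with mesophyll cell protoplasts labelled WT. These 2 arrays and 2 arrays are 4 of the 8 arrays in the series, chosen by their titles. All 4 came from 5-week-old Col-0 plants grown on soil in long days. Neither a harvest time nor a mock transfection is given for the WT protoplasts in the sources used here, so time, transfection and ORE1 cannot be told apart between the groups. 35S is a strong constitutive promoter, and the share of cells that took up the construct is not given. Whether replicates came from separate preparations is not stated, and p-values may therefore measure technical spread only.

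ORE1 is a NAC transcription factor that promotes leaf senescence, the ordered breakdown of a leaf in which proteins, chlorophyll and cell contents are degraded and their nutrients are exported. Proteases and other hydrolases of the vacuole, sugar exporters and nucleases are among the genes known to become active in this process. No listed probe set belongs to ORE1, and its level was not analysed here. Of 22746 probe sets that are not controls, 10136 with values of log2 5 or more on at least 2 of these 4 arrays entered the test. The second-highest of the 4 values was 5.006 for the probe set just inside this limit and 4.996 for the one just outside it. Of the tested probe sets, 5347 have 1 listed gene, 252 have several and 4537 are not listed. They represent 5315 genes, of which 795 have a symbol and 4520 only a locus tag.

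On the deposited log2 scale the arrays had medians of 3.34 to 3.54, and 39.8% to 41.6% of probe sets were within 0.1 of the array's minimum, here called the lowest value (2.19 on both arrays numbered 1 and 2.18 on both numbered 2). Among 5 mesophyll markers with a listed probe set, RCA (Rubisco activase) read 8.86 to 9.41, LHCB4.1 7.75 to 8.16 and SBPASE 5.66 to 6.70 over the 4 arrays. LHCB4.2 stayed between 3.32 and 4.44 and PSAN between 2.20 and 4.00, below the limit for testing. The 3 tested markers had lower means with 35S:ORE1 (differences of -0.59 to -0.33) and did not pass in limma, and the part of this in the results below was not tested. Markers of guard and myrosin cells (FMA), of roots (EXPA7 and EXPA18) and of the tapetum (AMS) were at the lowest value on all 4 arrays. In such bulk samples, fewer cells of a type and less RNA per cell cannot be told apart.

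Rises outnumbered falls and were far larger, but the limit for testing forces the direction of part of them. Of the tested probe sets, 374 (3.69%) were higher with 35S:ORE1 and 57 (0.562%) were lower in limma at a Benjamini-Hochberg adjusted p under 0.05, together 431 (4.25%). The 399 with a WT mean under 5, which entered mainly through their 35S:ORE1 arrays, held 148 of these rises and 0 of the falls. Over the 9490 at log2 5 or more on both WT arrays, 223 were higher and 57 lower. The mean change of all 431 was at least 2-fold and their direction was the same in both same-numbered pairs, and 369 of the rises and 56 of the falls were also at least 2-fold in each pair. The median change of the higher probe sets was 2.35 on the log2 scale, and 123 of them rose at least 10-fold. Among the lower ones the median change was -1.31, and the largest fall was 2.32. With the replicate number as a block, which leaves 1 residual degree of freedom, 0 passed in limma (lowest adjusted p 0.0849) and 2526 had an unadjusted p under 0.05, among them all 374 and all 57. The count of falls was 29 without WT replicate 1 and 31 without WT replicate 2, and the share of rises among the calls was 86.8%, against 68.1% after median centring of the arrays. This centring shifted the median change of the tested probe sets from -0.02 to -0.19.

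Within the pairs, a rise of 2-fold or more was seen for 548 probe sets in pair 1 and 530 in pair 2, and a fall of that size for 222 and 271. Both 35S:ORE1 arrays lay above both WT arrays for 1661 probe sets (16.4%) and below them for 2086 (20.6%). Both pairs gave a 2-fold difference for 453 higher (4.47%) and 105 lower probe sets (1.04%), and 0 went 2-fold in opposite directions. These held 248 and 54 genes. At least 10-fold in both pairs were 113 higher and 0 lower probe sets. Across the tested probe sets, which are not independent replicates, the changes in the pairs correlated at 0.916 (Pearson) and 0.711 (Spearman), as a description of 2 pairs. Over the 9490 that reached log2 5 on both WT arrays, the values were 0.826 and 0.702. Of the tested probe sets, 23.5% had exactly equal values in pair 1 and 13.7% in pair 2. The median change was 0 in each pair.

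**Figure D1:**
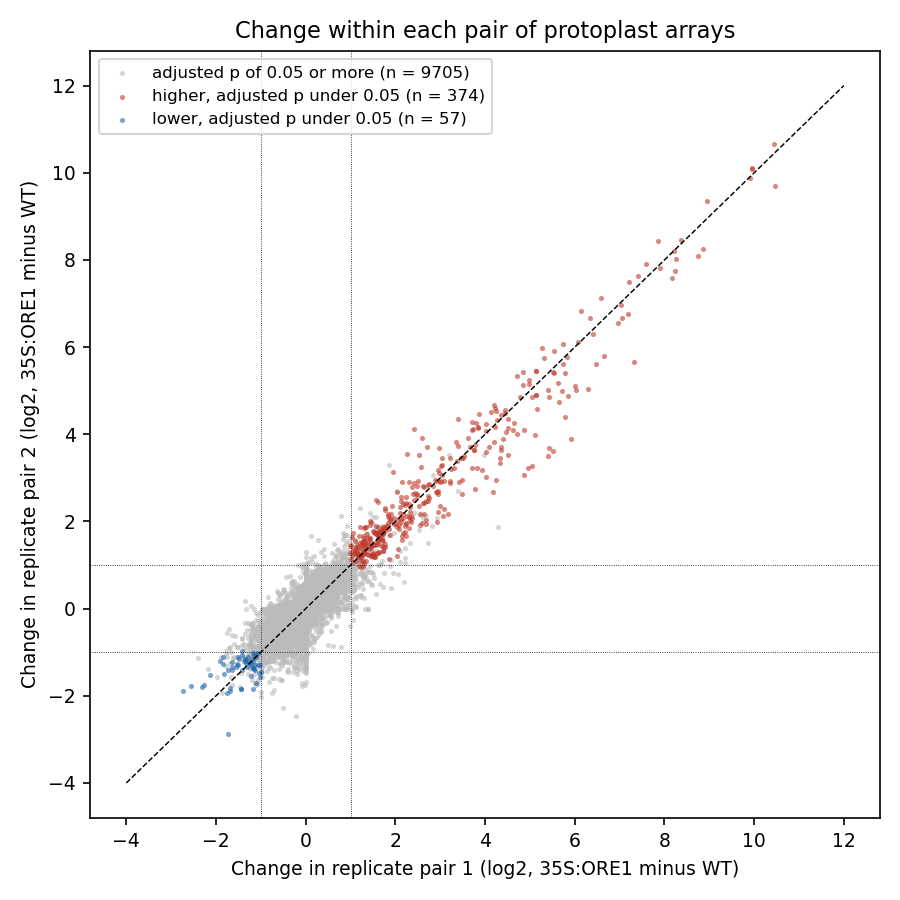
Change of each tested probe set in pair 1 (horizontal axis, log2, 35S:ORE1 minus WT) and in pair 2 (vertical axis, log2), with dotted lines at 2-fold and a dashed line of equal change. Red points (374 higher) reach beyond 10 on both axes, while blue points (57 lower) all lie within 3 of 0.

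The limit for testing admits probe sets with low WT values mainly through their 35S:ORE1 arrays, so their direction describes the selection. There were 399 tested probe sets with a WT mean under 5, of which 171 were at least 2-fold higher in both pairs and 0 lower. In the WT range of 7 to 9, which held 3587 probe sets, 109 were higher and 51 lower. Above 11, which held 1089, 11 were higher and 9 lower. A group of 55 probe sets, covering 30 genes, was at the lowest value on both WT arrays. The limit for testing forces these to be higher with 35S:ORE1, and all 55 are among the 374 counted as higher. Their 35S:ORE1 means ran from 5.27 to 12.7 with a median of 7.39, and 12 of them were at 10 or more. The converse, at the lowest value on both 35S:ORE1 arrays and at 5 or more on both WT arrays, was found for 0 of the 22746 probe sets. A change against WT arrays at the lowest value is given below as a lower bound, which is the difference of the means on the deposited scale, with no SE or p. Where both WT values were under 5 the limit also forces the direction, so an SE or p given there is no support for a rise. The same holds for a fall where both 35S:ORE1 values were under 5.

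**Figure D2:**
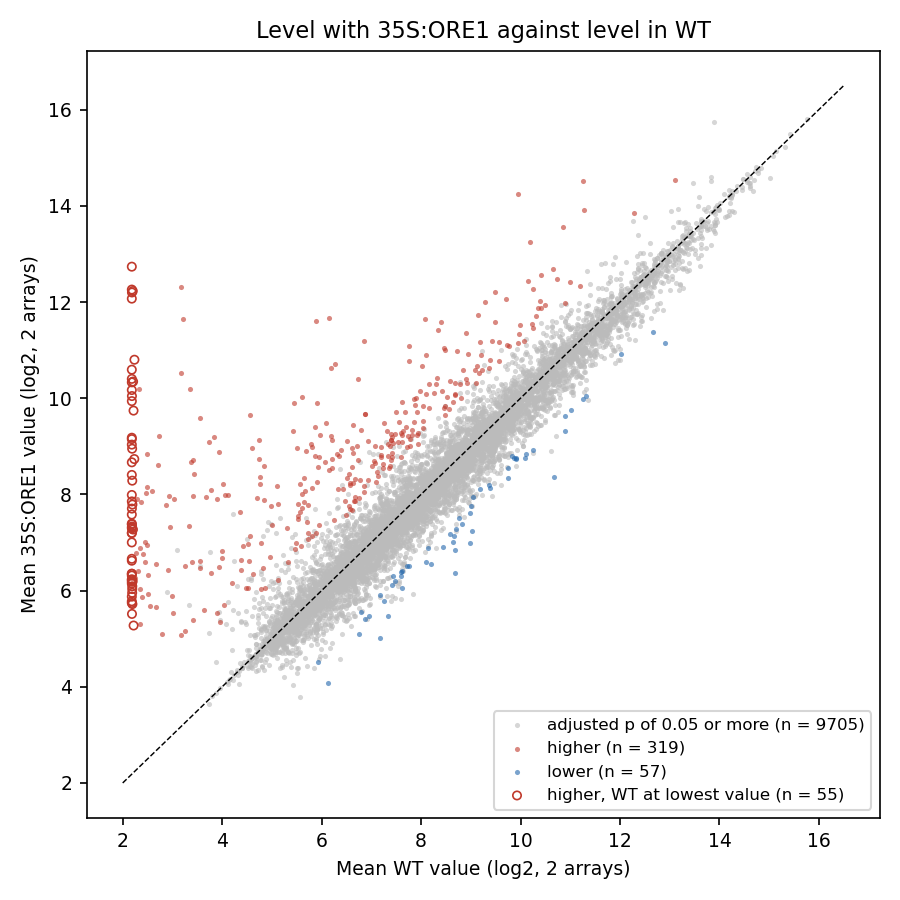
Mean value with 35S:ORE1 (vertical axis, log2, 2 arrays) against mean value in WT (horizontal axis, log2, 2 arrays) for each tested probe set, with a dashed line of equal values. Open circles are the 55 probe sets at the lowest value on both WT arrays, with 35S:ORE1 means of 5.27 to 12.7.

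The genes with the largest rises went from at or near the lowest value to the upper part of the scale. AT4G04460 read 12.65 and 11.87 on the 35S:ORE1 arrays and 2.19 and 2.18 on the WT arrays, a rise of at least 10.08 on the log2 scale. AT4G18425 read 12.14 and 12.25 against 2.19 and 2.18, at least 10.01 higher. The arrays of a group lay within 1 log2 unit of each other for both genes, and the groups were over 9 log2 units apart. SAG29, named SWEET15 in the reference and encoding a senescence-associated sugar exporter of the plasma membrane, read 11.50 and 13.13 against 2.56 and 3.78. Its rise of 9.15 ± 0.67 (SE, n = 2 and 2) had the largest SE of the 25 largest rises. Both its 35S:ORE1 and its WT value were higher in replicate 2. Its WT values were under log2 5, so the selection forces the direction. AT2G14095 (at least 8.56), AT1G24430 (at least 8.15) and AT2G44260 (at least 7.53) followed, all from WT arrays at the lowest value. The reference tables give no name for these 5 locus tags.

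**Figure D3:**
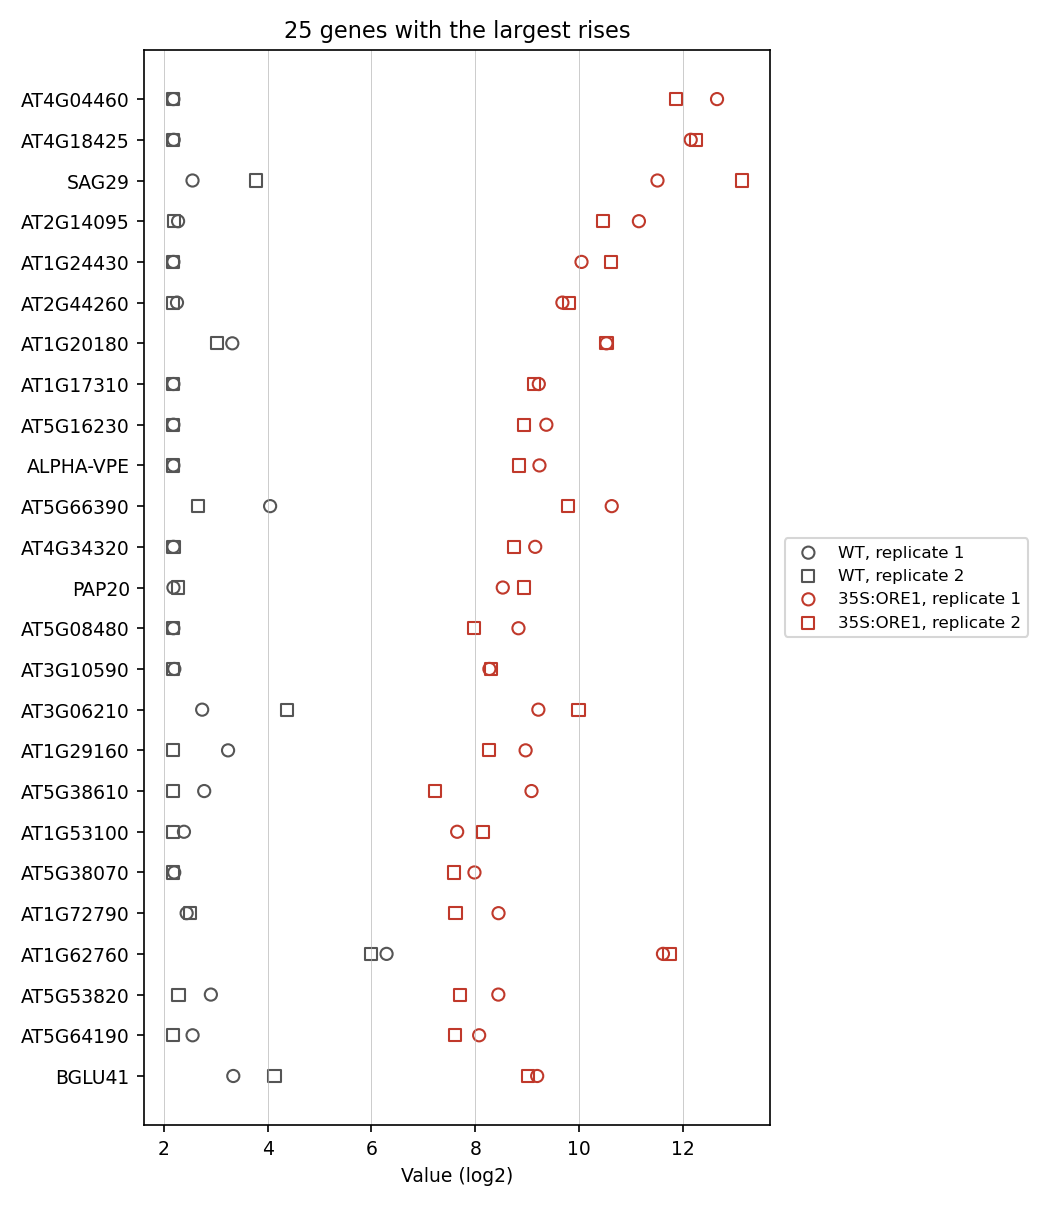
Value on each array (horizontal axis, log2) of the 25 genes with the largest rises among those at least 2-fold higher in both pairs; grey marks are WT and red marks 35S:ORE1, with circles for replicate 1 and squares for replicate 2. In every gene both red marks lie to the right of both grey marks, which the limit for testing forces where both WT values are under log2 5. AT1G62760 is the one gene of these with WT values near 6.

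Some rises were in protease genes. ALPHA-VPE, a vacuolar processing enzyme that activates other vacuolar proteins by cleavage, read 9.23 and 8.84 against 2.19 and 2.18, at least 6.85 higher. Its relatives GAMMA-VPE (8.68 and 8.93 against 8.68 and 8.90) and BETA-VPE (7.61 and 8.04 against 8.35 and 8.04) were expressed in both groups and did not pass. Of 4 tested genes in the list of vacuolar and senescence proteases, 2 rose and 0 fell, beside 3.69% and 0.562% of all tested probe sets. For ALPHA-VPE the selection forces the direction. The other rise was scpl48, a serine carboxypeptidase-like gene, with 14.21 and 14.29 against 9.94 and 9.98. This was a 19.6-fold rise of an already abundant transcript (4.29 ± 0.17, limma adjusted p 0.000607), and its 4 values differed between replicates by less than 0.1.

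Of 29 listed serine carboxypeptidase-like genes 25 were not tested. Of the 4 tested 2 rose, beside 3.69% of all tested probe sets. These were scpl48 and scpl20 (9.43 and 8.52 against 5.72 and 5.29, 3.47 ± 0.36). SCPL49 and scpl46 differed by 0.07 and 0.05 and did not pass. Of 4 tested subtilases, which are serine proteases, 1 rose. That was ARA12, with 9.72 and 9.62 against 6.99 and 6.77 (2.79 ± 0.18), and the other 3 differed by -0.62 to -0.01 without passing. PAP20, a purple acid phosphatase, went from 2.19 and 2.28 to 8.53 and 8.94, at least 6.50 higher. Of genes outside the lists, chosen after their values were seen, ChiC, a chitinase, rose by 2.71 ± 0.18 from WT values of 10.96 and 10.73. The carboxylesterase gene CXE18 rose by at least 3.69. APM1, an aminopeptidase, was higher by 1.53 ± 0.23, and its limma call was lost without WT replicate 1 and without 35S:ORE1 replicate 2.

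Of 21 listed sugar transporters 15 were not tested. Of the 6 tested, 4 rose and 0 fell, beside 3.69% and 0.562% of all tested probe sets. For SAG29, SWEET7 and SWEET17 both WT values were under log2 5, so the selection forces their direction and most of this count. The 4 were all SWEETs, which move sugars across membranes down their gradient. Besides SAG29, SWEET7 read 7.58 and 7.20 against 2.19 and 2.18, at least 5.21 higher, a direction that the selection forces. SWEET2, a sugar transporter of the vacuolar membrane, read 11.11 and 11.24 against 9.50 and 9.65, a rise of 1.60 ± 0.18. SWEET17, a fructose transporter of the vacuolar membrane, read 6.00 and 6.09 against 4.71 and 4.85. Its change of 1.26 ± 0.17 passed (limma adjusted p 0.0286), a call that was lost with each of the 4 arrays left out in turn. SFP1 and TMT1, sugar transporters outside the SWEET family, differed by 0.20 and 0.05 (limma adjusted p 0.964 and 1), and after median centring or quantile normalization TMT1 was on the other side of 0. Among genes outside the lists, chosen after their values were seen, PGM, given in the reference as a phosphoglycerate/bisphosphoglycerate mutase, read 9.45 and 9.33 against 5.92 and 5.83, a rise of 3.52 ± 0.17. AMY1, an alpha-amylase, read 8.98 and 9.12 against 7.85 and 8.04, a call lost in the same way. Among glycerol-3-phosphate dehydrogenases, which link sugar and glycerolipid metabolism, GPDHp rose by 3.93 ± 0.20 and GPDHC1 by 1.72 ± 0.21. For GPDHp, with WT values of 4.07 and 4.05, the selection forces the direction.

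Glycosidases and glycosyltransferases held calls in both directions. Of 9 tested beta-glucosidases, 2 rose and 1 fell, beside 3.69% and 0.562% of all tested probe sets. BGLU41 read 9.19 and 9.01 against 3.34 and 4.13, and BGLU40 read 9.15 and 9.22 against 3.44 and 4.22. Their rises were 5.36 ± 0.31 and 5.36 ± 0.30, a direction that the selection forces because their WT values were under log2 5. BGLU27 showed the largest fall of any tested gene, from 9.01 and 8.35 to 6.27 and 6.46 (-2.32 ± 0.27, limma adjusted p 0.0193). The median of the 9 was -0.15, beside -0.01 over all 5315 tested genes, and the other 6 differed by -0.59 to 0.69 without passing. GH9B17, a glycoside hydrolase of the endoglucanase family, was at the lowest value on both WT arrays and at 6.05 and 6.65 with 35S:ORE1, at least 4.17 higher.

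UGT glycosyltransferases attach sugars to hormones and other small molecules. Of 23 tested, 1 rose and 2 fell, beside 3.69% and 0.562% of all tested probe sets. UGT76D1 read 6.28 and 6.37 against 2.26 and 2.77, with WT replicate 1 at the lowest value. It rose by at least 3.81, a direction that the selection forces. UGT71B6, which glucosylates abscisic acid, read 5.54 and 6.03 against 7.38 and 7.14 (-1.48 ± 0.24), and UGT74D1 read 8.76 and 8.82 against 9.82 and 9.85 (-1.05 ± 0.17). Both calls were lost without either of the arrays numbered 1, and that of UGT74D1 also without either of those numbered 2. Of the 23, 4 had a higher mean (3 after median centring), and the median was -0.40. Over all tested probe sets 41.6% had a higher mean.

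Further rises included signalling and membrane genes. RR16, a type-A response regulator of cytokinin signalling known as ARR16, read 8.35 and 7.44 against 3.20 and 2.86 (4.87 ± 0.35). TET10, a tetraspanin, was at the lowest value in WT and at 7.17 and 7.41 with 35S:ORE1. HHP2, a membrane protein of the heptahelical family, read 9.02 and 8.75 against 3.96 and 3.90. In these 3 genes every WT value was below 4, so the selection forces the direction, and every 35S:ORE1 value was above 7. AT5G66390, named PEROXIDASE 72 in the reference, read 10.62 and 9.78 against 4.05 and 2.66, a rise of 6.85 ± 0.55 whose direction the selection also forces. Of 30 tested ubiquitin genes 1 rose, beside 3.69% of all tested probe sets. That was AT3G13672, listed in the reference as SINA2, with 6.38 and 5.99 with 35S:ORE1. It was at the lowest value in WT (at least 4.00 higher), so the selection forces the direction. Of the other 29 none passed in limma, and their differences ran from -0.36 to 0.81. AtS40-3, of a gene family linked to senescence, rose by 1.98 ± 0.23. Of 5 tested glutathione S-transferases 1 rose, beside the same 3.69%. This was GSTU22 (2.64 ± 0.17), and the other 4 differed by -0.23 to 0.74 without passing.

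Most of the largest rises among genes already at log2 5 or more on both WT arrays carry a locus tag only. So do 4520 of all 5315 tested genes. With both WT arrays at log2 5 or more, 151 genes were at least 2-fold higher in both pairs. Of these, AT1G62760 rose most, with 11.61 and 11.74 against 6.29 and 5.99 (5.53 ± 0.19). AT2G15830 read 10.08 and 9.73 against 5.63 and 5.24, and AT1G11170 read 10.04 and 9.99 against 5.81 and 5.39. Both rose by more than 4 log2 units, ahead of scpl48. AT5G39520 was abundant on all arrays, with 13.24 and 13.24 against 10.26 and 10.13, and its rise of 3.05 ± 0.17 carried an adjusted p of 0.00181 in limma. The leading rises included 4 probe sets without a single listed gene. Of them 263689_at read 12.63 and 12.84 against 2.19 and 2.18 (at least 10.55), 262454_at rose by at least 10.03, 257944_at by at least 9.89 and 247965_at by 8.42.

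Falls were smaller, and none of the 15 largest reached the lowest value with 35S:ORE1. AT1G72920 read 4.61 and 5.41 against 7.18 and 7.19 (-2.17 ± 0.30, limma adjusted p 0.0298). AT3G46110 read 3.69 and 4.45 against 6.00 and 6.25 (-2.06 ± 0.31). Both its 35S:ORE1 values were under log2 5, so the selection forces its direction. FMO read 5.59 and 5.37 against 7.35 and 7.31 (-1.85 ± 0.18, limma adjusted p 0.0101). In all 3 the groups were separated by 1.5 log2 units or more. Of the 15 genes with the largest falls, 11 passed. The 4 that did not were AT5G22860 (-1.71), AT1G21590 (-1.63), GAT1_2.1 (-1.62) and AT1G08230 (-1.54), with limma adjusted p of 0.0608 to 0.140. Each of these 4 passed under at least 1 alternative. Among probe sets without a single listed gene, 253161_at fell by 2.31 and 260406_at by 2.00.

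**Figure D4:**
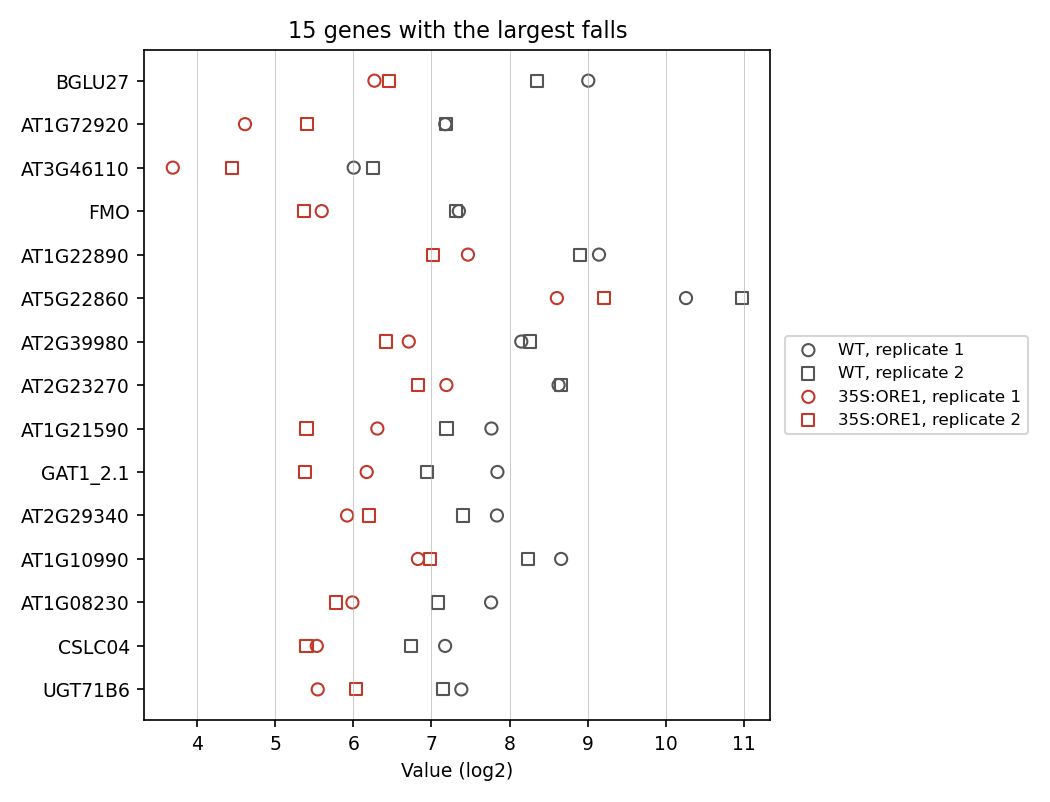
Value on each array (horizontal axis, log2) of the 15 genes with the largest falls among those at least 2-fold lower in both pairs; grey marks are WT and red marks 35S:ORE1, with circles for replicate 1 and squares for replicate 2. Both red marks lie to the left of both grey marks in every gene, with the largest gap between means in BGLU27 (-2.32).

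Cell wall synthesis genes were among the falls. Of 13 tested genes for cellulose, xylan and lignin synthesis, 0 rose and 2 fell, beside 3.69% and 0.562% of all tested probe sets. Their median change was -0.43. CSLC04, of the family that makes the glucan backbone of xyloglucan, read 5.53 and 5.40 against 7.17 and 6.74 (-1.49 ± 0.22). CCOAMT, a methyltransferase of the lignin pathway, read 9.96 and 10.15 against 11.31 and 11.33 (-1.26 ± 0.17). TBL41 (-1.29) and CCR2 (-1.05) were lower too but did not pass in limma (adjusted p 0.0839 and 0.104). TBL23 was higher by 0.83 and did not pass (limma adjusted p 0.0857), and 4 of the 13 had a higher mean. Prx37, a peroxidase (-1.43 ± 0.20), PDF1.4, a defensin (-1.41 ± 0.17), and the linker histone gene HIS1-3 (-1.39 ± 0.19) fell as well. HIS1-3 read 4.57 and 4.47 with the ORE1 construct, against 6.07 and 5.76 in WT. Both its values with the construct were under log2 5, so the selection forces its direction. Of 23 named falls that passed in limma, 13 lost their call without at least 1 array, CSLC04, CCOAMT, Prx37, PDF1.4 and HIS1-3 among them, against 3 of 66 named rises.

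Of 8 tested nuclear photosynthesis genes, beside 4.25% of all tested probe sets called, 1 fell, PSBY of photosystem II (8.06 and 8.16 against 9.17 and 9.22, -1.09 ± 0.17), and this call was lost with each array left out in turn. The median of the 8 was -0.44, and RCA read 8.86 and 9.09 against 9.39 and 9.41. Of 68 tested chloroplast-encoded genes none passed in limma (lowest adjusted p 0.236). Of these, 54 had a higher mean and the median was 0.15, but after median centring 33 did and the median was -0.02. Of 24 genes for secretion and vacuolar sorting none passed in limma, and their median of 0.10 was -0.07 after median centring.

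Of 11 tested autophagy genes, which deliver cell contents to the vacuole, none passed in limma (lowest adjusted p 0.0906). The median was 0.40, and 9 had a higher mean. AT5G66930, the reference's ATG101, read 9.49 and 10.17 against 8.36 and 8.61, and ATG8C read 9.88 and 10.54 against 8.89 and 9.24. Their differences were 1.35 and 1.15. The 35S:ORE1 arrays lay above the WT arrays for 9 of the 11, beside 16.4% of all tested probe sets. Of the other senescence-associated genes tested, WRKY6, WRKY22 and SAG101 differed by -0.06, 0.15 and -0.60, and NOL, a chlorophyll b reductase and reported ORE1 target, by 0.55, without passing. The 4 tested genes of abscisic acid and dehydration response (COR15A, LTI30, COR47 and COR15B) differed by -0.74 to -0.29, and none passed in limma. Of 33 lists with at least 3 tested genes, 20 held no call and 13 at least 1.

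**Figure D5:**
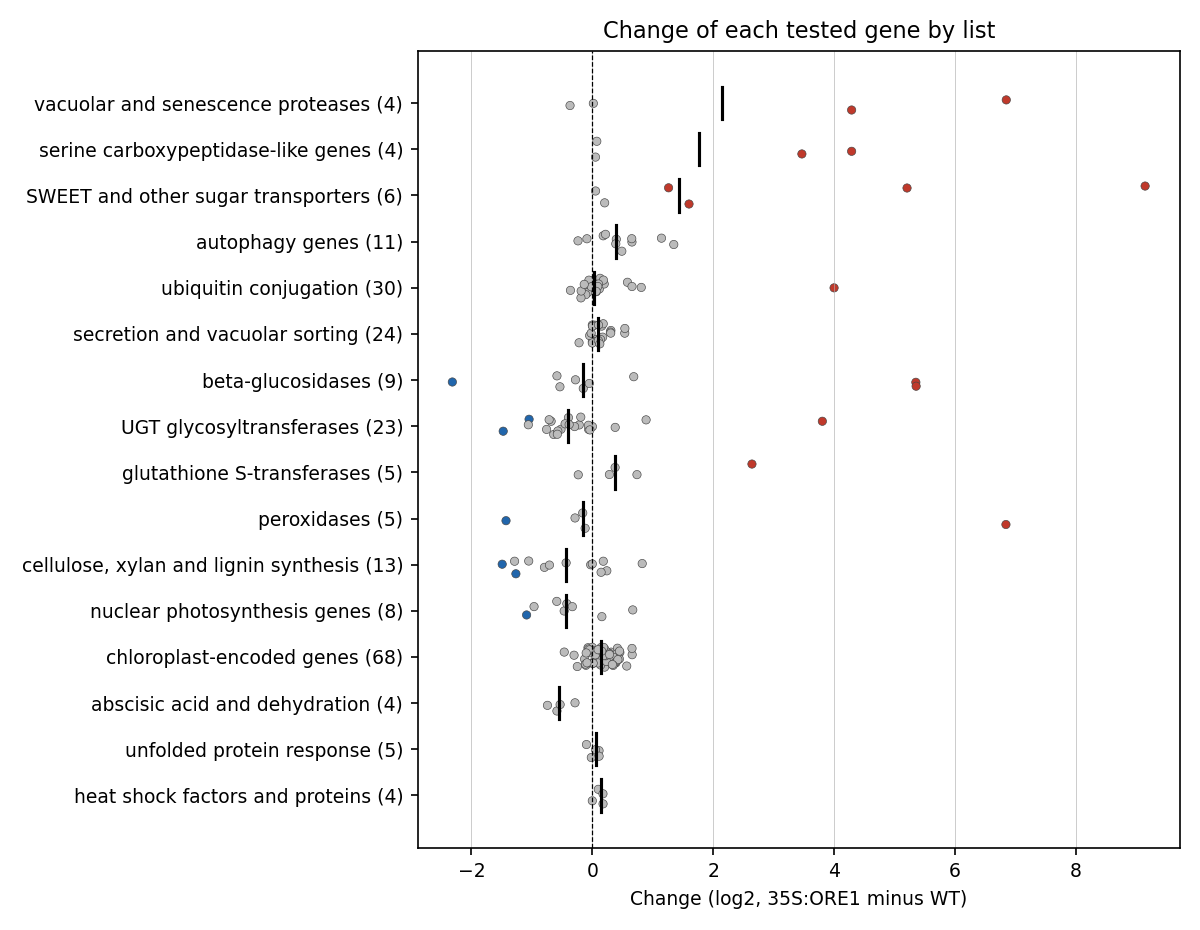
Change of each tested gene (horizontal axis, log2, 35S:ORE1 minus WT) by list, with the number of tested genes in brackets; red points rose and blue points fell at a limma adjusted p under 0.05, grey points did not pass, and black bars are medians. The SWEET and protease lists hold points beyond 5 (SAG29 at 9.15, ALPHA-VPE at 6.85), whose direction the limit for testing forces. All 68 chloroplast-encoded genes lie within 1 of 0.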

How the data were processed

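Single-colour Affymetrix arrays were used, 1 per sample. The authors deposited log2 expression values per probe set; GCRMA and RMA are named per the submitters' processing notes, with no version and no assignment to arrays. Protoplast arrays of a number share their minimum and many exactly equal values, as if each pair had been processed separately; depth has no meaning here, and the number of arrays limits the precision. No further normalization was applied. Probe sets reaching log2 5 on at least 2 of the 4 protoplast arrays were fitted by lmFit and eBayes of limma (version 3.58.1, R version 4.3.3). Tests were two-sided, with a threshold of 0.05 after Benjamini-Hochberg adjustment, without a block and with 2 residual degrees of freedom. The procedure was tested on simulated data with independent arrays, so that test does not cover same-numbered arrays that deviate together. The smallest two-sided p of an exact permutation test is 0.333 at this size, and none was run. The 2 arrays of a number deviated together from their groups (r = 0.736 across probe sets), but 2 pairs do not establish pairing.

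Gene names came from the platform's probe table, in which 13513 probe sets have 1 gene and 503 have several, with symbols and synonyms of the TAIR10.1 gene table. A gene with several probe sets is represented by the one with the highest mean. Named were the 25 largest rises and 15 largest falls among genes at least 2-fold changed in both pairs, the 10 largest rises not at the lowest value in WT, up to 6 members and all calls of every list, and up to 4 probe sets per direction without a single listed gene. The 15 largest rises among genes expressed in WT, and called genes with a symbol, were added after their values were seen. The comparison, the 60 gene lists and the rules were chosen with earlier results of these data known, and 3 search patterns and 2 exclusions were corrected afterwards. Promoter and protein sequences were not analysed here. Alternatives were the replicate block, other scalings and filters, all 8 arrays in the fit, a trend in the spread and leaving out each array.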

Additional observations from a re-analysis of the deposited data

How the results depend on the processing

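None of the 94 named results followed reversed its direction under the alternatives run. Each had passed in limma or was at least 2-fold changed in both pairs, so this outcome was largely fixed in advance. Named genes with small differences were not followed, and TMT1 crossed 0 after median centring. A median on the other side of 0 after this centring was found for 10 of the lists with at least 3 tested genes. Among them were the chloroplast-encoded, secretion and ubiquitin lists (-0.02, -0.07 and -0.14). With the replicate block 0 probe sets were called in either direction, against 431 (374 higher, 57 lower) without it; same-numbered arrays share a number and a lowest value, but with 2 pairs the pairing is not established, and all 89 named results that passed lost their call under the block. Without a filter 124 were called (111 higher, 13 lower), and with a filter over all 8 arrays, an alternative added after seeing the data, 145 (135 higher, 10 lower); more probe sets were tested in both. With all 8 arrays in the fit 813 were called (582 higher, 231 lower). The count of falls was 162 after median centring, 111 after quantile normalization, 129 with a filter at log2 6 and 158 with a trend in the spread; the cause was not tested. Leaving out 1 array, where the lone array is assumed to vary like the other group, gave 360 to 418 calls, 328 to 365 higher and 29 to 53 lower. At least 2-fold lower in both pairs were 201 probe sets after median centring, against 105. Exactly at the lowest value on both WT arrays were 32 probe sets, against 55 within 0.1 of it. Of the 94 named results followed, 55 lost their call without a filter and 8 to 16 without 1 array, while 5 falls that had not passed did so under at least 1 alternative, all 5 with all 8 arrays in the fit.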
